A study of Mus musculus with 4 samples.

Results

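The 9 genes described here are grouped as immune-type genes, though not all of them are particular to immune cells. They were measured in mouse embryoid bodies, ball-like aggregates formed by differentiating embryonic stem cells. They were Cd80, Cd86, Cd274, P2rx7, P2rx4, Laptm5, Apobec1, Tap1 and B2m, 9 of the 22180 genes that could be named on the array. They were chosen from earlier results of these same arrays, from the difference between GSK-J4 and its controls, with Cd86 and Cd274 set against Cd80 as a contrast and Tap1 and B2m added as genes of antigen presentation. Their differences between GSK-J4 and the controls are therefore a description. Each gene was read by a single probe set.

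The embryoid bodies came from the mouse embryonic stem cell line R1 and were kept for 18 h without LIF, the cytokine that holds stem cells undifferentiated. The 4 treatments were EB medium alone, DMSO (the vehicle), 1.88 µM GSK-J5 and 1.88 µM GSK-J4. All of them shared the feeder depletion and the LIF withdrawal. GSK-J4 is an ester prodrug that enters cells and inhibits the KDM6 histone demethylases, enzymes that take the repressive methyl mark off lysine 27 of histone H3. GSK-J5 is the ester of its weakly active pyridine isomer and serves as the control compound. Each treatment was measured on 1 array of amplified total RNA. There is thus no replicate spread, and no difference here carries a p-value. The array medians over all probe sets lay between 6.63 and 6.65. The 15 stem cell and epiblast markers examined all lay above the filter level in their mean, among them Nanog at 13.05 to 13.20 and Sox2 at 12.93 to 13.02.

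In an adaptive immune response CD80 and CD86 on antigen-presenting cells bind CD28 and CTLA-4 on T cells, while PD-L1, the product of Cd274, engages the inhibitory receptor PD-1. P2X receptors are cation channels opened by extracellular ATP, and P2X7 is best known from macrophages, where it can trigger the inflammasome. TAP1 forms part of the transporter that carries peptides into the endoplasmic reticulum, and β2-microglobulin, the product of B2m, is the light chain of the MHC class I molecules that show these peptides at the surface.

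The sequences before the starts of 6 members are given first, because the comparisons below return to them: Cd80, which had the largest difference, Cd274, its contrast, the neighbouring P2X pair, and both antigen presentation genes. Each is the 250 bases upstream of a start in RefSeq (GRCm38.p6), read 5′ to 3′ on the strand of the gene. Capitals mark matches to the motifs named after them.
Cd80 (chr16:38458683-38458932, plus strand): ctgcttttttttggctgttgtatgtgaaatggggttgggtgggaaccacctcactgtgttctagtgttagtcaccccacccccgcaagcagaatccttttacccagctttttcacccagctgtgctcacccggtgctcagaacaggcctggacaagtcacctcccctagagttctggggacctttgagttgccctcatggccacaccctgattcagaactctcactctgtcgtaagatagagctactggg
Cd274 (chr19:29367188-29367437, plus strand): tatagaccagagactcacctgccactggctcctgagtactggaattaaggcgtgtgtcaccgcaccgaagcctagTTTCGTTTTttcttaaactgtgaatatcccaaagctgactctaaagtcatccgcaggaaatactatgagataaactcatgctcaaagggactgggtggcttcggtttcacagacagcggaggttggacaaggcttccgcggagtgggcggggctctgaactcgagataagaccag
P2rx7 (chr5:122643677-122643926, plus strand): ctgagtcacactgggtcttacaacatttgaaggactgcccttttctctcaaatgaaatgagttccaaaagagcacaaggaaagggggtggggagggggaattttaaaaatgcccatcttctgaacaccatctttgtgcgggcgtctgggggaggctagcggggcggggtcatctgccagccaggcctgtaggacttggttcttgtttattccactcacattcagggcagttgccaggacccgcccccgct
P2rx4 (chr5:122707294-122707543, plus strand): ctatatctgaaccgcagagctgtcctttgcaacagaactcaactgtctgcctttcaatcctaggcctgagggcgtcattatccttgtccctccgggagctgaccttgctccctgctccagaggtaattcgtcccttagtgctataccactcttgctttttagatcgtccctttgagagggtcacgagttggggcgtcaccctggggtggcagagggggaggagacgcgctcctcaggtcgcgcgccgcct
Tap1 (chr17:34187306-34187555, plus strand): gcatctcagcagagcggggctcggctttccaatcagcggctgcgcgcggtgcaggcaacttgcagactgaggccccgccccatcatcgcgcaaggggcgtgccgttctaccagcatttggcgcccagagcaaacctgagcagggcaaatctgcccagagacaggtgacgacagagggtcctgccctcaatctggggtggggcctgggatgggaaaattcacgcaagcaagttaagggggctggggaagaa
B2m (chr2:122147437-122147686, plus strand): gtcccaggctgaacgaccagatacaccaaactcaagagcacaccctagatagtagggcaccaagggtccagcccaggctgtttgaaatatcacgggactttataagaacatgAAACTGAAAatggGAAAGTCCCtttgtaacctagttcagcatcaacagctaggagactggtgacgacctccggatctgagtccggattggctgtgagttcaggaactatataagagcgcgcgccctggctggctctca

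RefSeq windows matched 8 of the 9 members, with 2 starts for P2rx7, so 9 windows were searched on both strands. The motifs were the interferon-stimulated response element core TTTCNNTTT, the NF-kB site core GGGANTTTC, the interferon-gamma activated site TTCCNGGAA, the amino acid response element core TGATGNAA, the cyclic AMP response element TGACGTCA, and the p53 half-site. B2m and Cd274 were the members with a match. In B2m an interferon element core lay 138 to 130 bases before the start and an NF-kB core 125 to 117 bases before it, both on the strand opposite to the gene and without overlap. In Cd274 an interferon element core lay 175 to 167 bases before the start, on the strand of the gene. The interferon element core occurred in 9.37% of all 32851 windows and the NF-kB core in 0.941%. The p53 half-site was present in 7.13%, the amino acid element in 3.45%, the cyclic AMP element in 1.55% and the interferon-gamma site in 0.913% of all windows, and in none of the members' windows. GC content ranged from 48.0% (Apobec1) to 62.4% (Tap1), beside a median of 52.4% over all windows. CpG pairs numbered from 3 (Cd80) to 14 (Tap1), beside a median of 6.

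Transcripts of Cd80, P2rx7, P2rx4, Laptm5 and Apobec1 read at least 1.5-fold higher in GSK-J4 than in every control array. Tap1 and B2m were higher by less, Cd274 was above its controls by 0.10 on the log2 scale, and Cd86 lay inside the range of its controls. A gene was counted when it averaged at least 6.585, which is the 40th percentile of all named genes, and GSK-J4 lay at least 0.585 log2 units above the highest control; that distance is called the margin. By this rule 5 of the 9 members were higher and 0 lower, and 294 of all 13314 genes that passed the filter (2.21%) were higher. The members were picked for this difference, so the count is set beside the background and nothing is read from it. Cd86 and Cd274 did not pass the filter. For the 5 counted genes all controls also lay above the filter level, the lowest being Laptm5 in DMSO at 6.92. On either side of the threshold, P2rx4 had a margin of 0.86 and Tap1 one of 0.58.

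**Figure D1:**
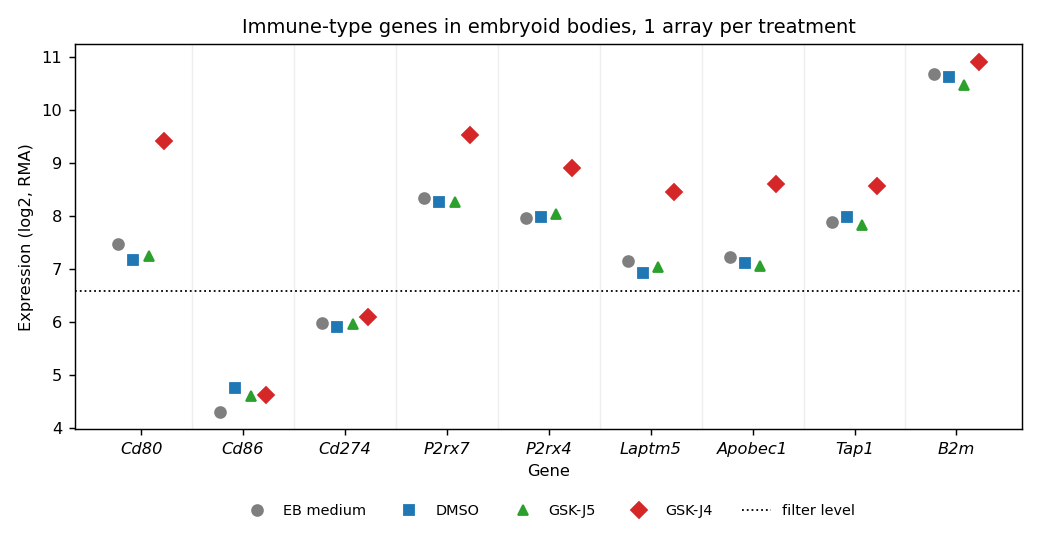
Log2 expression (vertical axis) of the 9 members on the 4 arrays, 1 point per array, with the filter level of 6.585 as a dotted line; there are no error bars because each treatment has 1 array. The GSK-J4 point stands clear of the 3 controls for Cd80, P2rx7, P2rx4, Laptm5 and Apobec1 and lies among them for Cd86. Heights of different genes are read by different probes and are not comparable.

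Cd80, the costimulatory ligand, showed the largest difference of the members. It read 7.47 in medium, 7.18 in DMSO, 7.24 in GSK-J5 and 9.42 in GSK-J4. The margin of 1.95 is a 3.86-fold difference from the nearest control, medium, and ranked 7 among the 13314 genes. Against GSK-J5, the isomer at the same dose and time, the difference was 2.18, or 4.53-fold. These are values of bulk RNA, so more cells with Cd80 transcript and more transcript per cell cannot be told apart.

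Cd86, the other ligand of CD28 and CTLA-4, read 4.31 in medium, 4.76 in DMSO, 4.61 in GSK-J5 and 4.63 in GSK-J4. The GSK-J4 value fell between the controls, whose range was 0.45. Of the 13314 genes, 2.06% had a range as wide, but all of them are brighter on average than Cd86. All 4 values were far under the filter level, and detection could not be examined, so a change of a gene this dim might not be visible. Cd274 read 5.99, 5.90, 5.96 and 6.09 in the same order, also under the filter level on every array. Its GSK-J4 minus GSK-J5 difference was 0.13. The Cd80 difference exceeded that of Cd86 by 1.63 against medium, 2.37 against DMSO and 2.16 against GSK-J5. It exceeded that of Cd274 by 1.85, 2.05 and 2.05.

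The other ligands of the B7 family gave no second case like Cd80. Of the 8 measured of 10 listed, 5 passed the filter and Cd80 alone was counted, beside 2.21% over all genes that passed. Cd80 was picked for its difference, so nothing is read from this count. Icosl, the ligand of the ICOS costimulator, read 8.45 in GSK-J4 against 8.32 to 8.48. Cd276, which encodes B7-H3, read 10.52 against 10.64 to 10.74. Vtcn1, the B7-H4 gene, read 6.87 against 6.94 to 7.03, and Vsir, the gene of the checkpoint ligand VISTA, 7.10 against 7.11 to 7.59. Pdcd1lg2, which encodes PD-L2 and lies beside Cd274, read 5.95 against 6.32 to 6.59, under the filter in its mean. The T cell receptors of these ligands, Cd28, Ctla4, Pdcd1 and Icos, were all 4 under the filter level in their means.

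The 2 purinergic receptor genes among the members are neighbours on chromosome 5, and both read higher in GSK-J4. P2rx7 read 8.33 in medium, 8.26 in DMSO, 8.27 in GSK-J5 and 9.53 in GSK-J4, a margin of 1.20 (2.30-fold). P2rx4, the gene of a P2X channel found in microglia and many epithelia, read 7.97, 7.98, 8.04 and 8.90, a margin of 0.86 (1.81-fold). The controls of each spanned 0.07, narrower than the median range of 0.12 over the 13314 genes. The RefSeq starts whose sequences are printed above lie 63.6 kb apart. The genes around the pair were not counted. Ift81, which encodes an intraflagellar transport protein and lies before P2rx7, read 8.28 against 7.84 to 7.94 (margin 0.34). Camkk2, a calcium/calmodulin-dependent kinase kinase gene that follows P2rx4, read 8.31 against 8.23 to 8.37.

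Among all 7 P2X genes, 5 passed the filter and 3 were higher, beside 2.21% over all genes that passed. P2rx7 and P2rx4 are members picked for this difference, so nothing is read from this count. The third, beside P2rx7 and P2rx4, was P2rx3, a subunit best known from sensory neurons. It read 6.36 in medium, 6.43 in DMSO, 6.63 in GSK-J5 and 7.50 in GSK-J4, a margin of 0.87. Its medium and DMSO values lay under the filter level, so its size is not exact, and it passed the filter through the GSK-J4 array. P2rx5 read 7.30 against 7.13 to 7.25 and P2rx2 6.72 against 6.93 to 7.02. P2rx1 (6.22 against 6.26 to 6.46) and P2rx6 (6.21 against 6.35 to 6.50) were under the filter. The list had a median difference of 0.05 from GSK-J5, 0.16 from DMSO and 0.17 from medium, beside −0.02, −0.02 and −0.01 over all named genes.

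A list of inflammasome genes and P2X7 partners, not all of them tied to P2X7, was read beside it. Of 13 measured, 6 passed the filter and 0 were counted. Over all genes that passed, 2.21% were higher and 0.841% lower, so a count of 0 among 6 is near these shares. Nlrc4, an inflammasome sensor gene, read 7.61 against 7.86 to 8.15, and Gsdmd, the pore-forming gasdermin gene, 6.55 against 6.61 to 6.69; these differed most from GSK-J5 among those that passed. Named after their values were seen, Nlrp3 (6.35 against 6.41 to 6.51), Casp1 (4.13 against 3.90 to 4.29) and Il1b (5.28 against 5.14 to 5.34) were all under the filter level on every array.

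Laptm5 and Apobec1 complete the counted members. Laptm5, a lysosomal membrane protein gene known from blood cells, read 7.16 in medium, 6.92 in DMSO, 7.04 in GSK-J5 and 8.45 in GSK-J4. Its margin was 1.29 (2.45-fold), more than its control range of 0.24. Its relatives Laptm4a (12.05 against 11.94 to 12.04) and Laptm4b (12.23 against 11.97 to 12.06) had margins of 0.01 and 0.17.

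Apobec1, the cytidine deaminase that edits apolipoprotein B mRNA, read 7.22 in medium, 7.12 in DMSO, 7.05 in GSK-J5 and 8.61 in GSK-J4. The margin was 1.39 (2.62-fold). In the list of its relatives and cofactors, Apobec1 included, 7 genes were measured, 5 passed and Apobec1 alone was counted. Over all genes that passed, 2.21% were higher. Apobec1 was picked for its difference, so nothing is read from this count. Apobec3, a deaminase that restricts retroelements, lay on the other side of its controls (11.08 against 11.36 to 11.48), and Apobec2 read 8.58 against 8.39 to 8.47. The editing cofactor genes Rbm47 (8.96 against 8.89 to 9.06) and Syncrip (12.13 against 12.24 to 12.34) differed little. A1cf, the gene of the other known editing cofactor, and Apobec4 read 4.51 and 4.71 in GSK-J4 and were under the filter. Apobec1 lies in a stretch of chromosome 6 with genes of the pluripotent state. Of these Gdf3, a TGF-beta family ligand, read 11.45 against 11.35 to 11.42, Dppa3, a maternal-effect gene, 8.94 against 9.42 to 9.47, and Nanog 13.05 against 13.11 to 13.20.

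**Figure D2:**
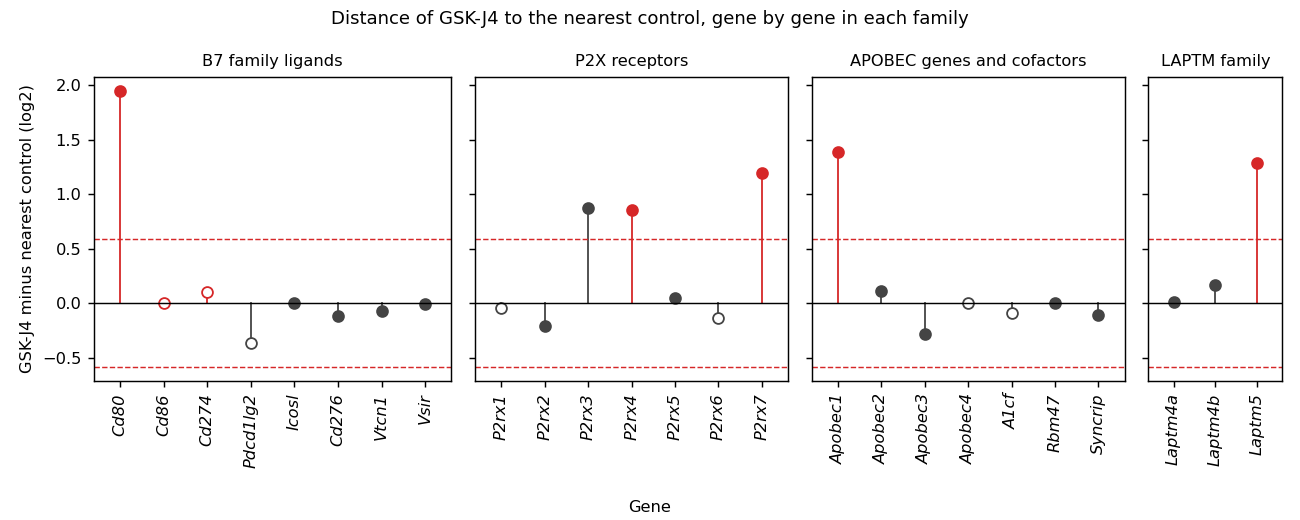
Distance of GSK-J4 to the nearest of the 3 controls (log2, vertical axis; 0 where GSK-J4 lies inside their range) for each measured gene of 4 families, with members in red, genes under the filter as open circles and the 1.5-fold limits dashed. The points past the upper limit are Cd80 (1.95), Apobec1 (1.39), Laptm5 (1.29), P2rx7 (1.20), P2rx3 (0.87) and P2rx4 (0.86). All of them except P2rx3 are members picked for this difference.

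The antigen presentation genes were higher by less. Tap1 read 7.89 in medium, 7.98 in DMSO, 7.83 in GSK-J5 and 8.56 in GSK-J4. All 3 controls lay below GSK-J4, by 0.67, 0.58 and 0.73, and the DMSO array alone kept Tap1 under the 0.585 limit. Without the DMSO array its margin was 0.67, and after centring each array on its median it was 0.59, so that Tap1 was counted in both cases and the members' count became 6. B2m read 10.67, 10.62, 10.47 and 10.91, a margin of 0.24, which is close to its control range of 0.20. The GSK-J4 minus GSK-J5 difference of B2m, 0.44, was larger than that against medium (0.24) or DMSO (0.29), because GSK-J5 read lowest of the controls.

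Tap1 had the highest margin of the class I list (0.58), while B2m (0.24) came after H2-Q4 (0.32). Of 31 measured genes, 20 passed the filter. Beside 2.21% higher and 0.841% lower over all genes that passed, 0 were higher and 1 was lower. That gene was Psmb10, an immunoproteasome subunit, which read 10.04 in medium, 10.07 in DMSO, 10.09 in GSK-J5 and 9.29 in GSK-J4 (margin −0.75). In all 15 lay below all 3 controls by any amount and 9 above; over all named genes these shares were 36.3% and 30.6%. The list had a median difference of −0.03 from GSK-J5, −0.09 from DMSO and −0.08 from medium, beside −0.02, −0.02 and −0.01 for all genes. Named after their values were seen, the partners of Tap1 and B2m gave these readings. Tap2, the other subunit of the peptide transporter, read 5.87 against 5.78 to 5.97, under the filter. Psmb9, the immunoproteasome gene that lies next to Tap1, read 6.26 against 6.12 to 6.47, also under the filter, and Psmb8, on its other side, 6.48 against 6.63 to 6.77. The class I heavy chain gene H2-K1 read 9.32 against 9.14 to 9.34, and Tapbp, the tapasin gene, 9.26 against 9.43 on each control. H2-Q4 read 8.54 against 7.92 to 8.22, but a second probe set of it lay inside its controls. Class I heavy chain genes are near copies of each other, so their probe sets may read more than one of them.

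**Figure D3:**
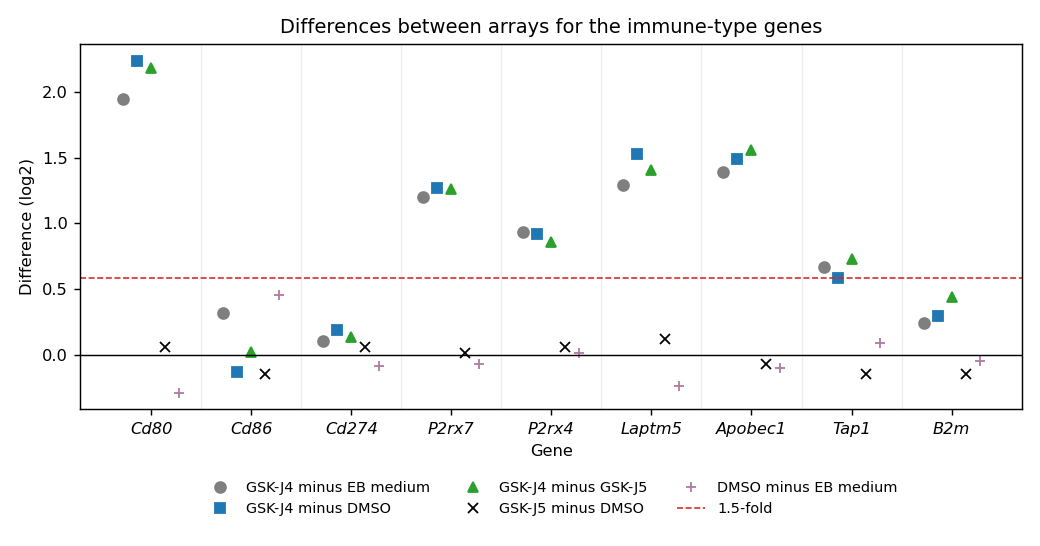
Log2 differences (vertical axis) of the 9 members for GSK-J4 minus each control and for 2 pairs of controls, 1 point per comparison, with the 1.5-fold limit dashed. For Cd80, P2rx7, P2rx4, Laptm5 and Apobec1 all 3 GSK-J4 differences lie above the limit; Tap1 straddles it (0.58 to 0.73), and the differences between controls lie from −0.29 to 0.45.

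No class II, interferon or NF-kB gene was counted, beside 2.21% higher and 0.841% lower over all genes that passed. Counts of 0 in lists this small are near what these shares give, so nothing is read from them. None of the 5 class II genes that passed was counted; Ifi30, a lysosomal thiol reductase gene, read 11.84 against 11.52 to 11.58, and H2-Eb1, a class II beta chain gene, 7.65 against 7.15 to 7.61. Of the interferon response list, 36 genes were measured, 21 passed and 0 were counted in either direction. In all 9 lay above all controls and 17 below; over all named genes these shares were 30.6% and 36.3%. The median difference was −0.13 from GSK-J5, −0.10 from DMSO and −0.055 from medium, beside −0.02, −0.02 and −0.01 for all genes. Irf1, an interferon-induced transcription factor that acts on class I genes, read 8.36 against 8.72 to 8.81, and Oasl2, an oligoadenylate synthetase-like gene, 6.27 against 6.69 to 6.78. Of 25 NF-kB genes, 17 passed and 0 were counted. Rel, a subunit of the factor, read 7.62 against 7.04 to 7.44, and Birc3, an inhibitor of apoptosis and NF-kB target, 7.79 against 8.20 to 8.32. The median NF-kB difference was −0.06 from GSK-J5, −0.01 from DMSO and 0.05 from medium, so its sign turned with the control.

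In the list of natural killer cell ligands and protective surface proteins 9 genes were measured, 7 passed, 2 were higher and 0 lower. Over all genes that passed, 2.21% were higher and 0.841% lower. The higher genes were Cd55 and Cd59a, which encode complement inhibitors and not natural killer ligands. Cd55, decay-accelerating factor, read 7.42 in medium, 7.52 in DMSO, 7.47 in GSK-J5 and 8.46 in GSK-J4 (margin 0.94, 1.92-fold). Cd59a, an inhibitor of the membrane attack complex, read 8.68, 8.89, 8.69 and 9.78 (margin 0.89, 1.85-fold). The list's median difference was −0.01 from GSK-J5, 0.02 from DMSO and 0.01 from medium.

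**Figure D4:**
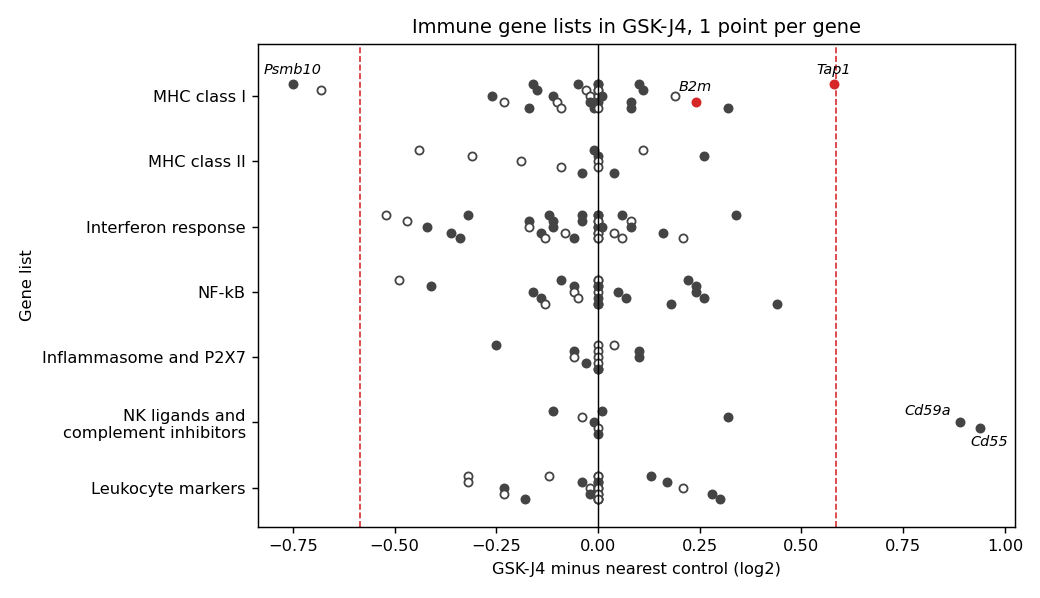
Distance of GSK-J4 to the nearest control (log2, horizontal axis) for each measured gene of 7 immune lists, 1 point per gene, spread vertically only for legibility, with members in red, genes under the filter open and the 1.5-fold limits dashed. Cd55 (0.94) and Cd59a (0.89) lie past the upper limit, Psmb10 (−0.75) past the lower one, and Tap1 (0.58) just inside; the open point beyond the lower limit is H2-T10, which did not pass the filter.

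Markers of leukocytes and of feeder fibroblasts were read on the same arrays, and none was counted. Over all genes that passed the filter, 2.21% were higher and 0.841% lower. Counts of 0 in lists this small are near what these shares give. Over all named genes, 30.6% lay above all controls by any amount and 36.3% below. Of 25 leukocyte markers measured, 11 passed the filter, 0 were counted, 5 lay above all controls and 9 below. Their summed level, as log2 of the sum of linear values, was 12.16 in medium, 12.11 in DMSO, 12.21 in GSK-J5 and 12.21 in GSK-J4. Most of this sum is Cd68 and Kit together, so it is not a measure of leukocyte content. Ptprc, the pan-leukocyte gene of CD45, read 4.49 in GSK-J4 against 4.37 to 4.51. Kit (9.61 against 9.84 to 10.07), which stem cells also express, and Cd68 (10.91 against 10.50 to 10.61), a lysosomal protein gene not limited to macrophages, differed most from GSK-J5 among those that passed. Ccr7 (7.14 against 7.18 to 7.45) differed from GSK-J5 as far as Cd68, but downward. RMA values have no zero, so no marker can be called absent. Of the 16 feeder fibroblast markers 10 passed and 0 were counted, 1 lay above all controls and 8 below, and their summed level was 13.32, 13.31, 13.35 and 13.42 in the same order. Most of that sum is Fn1, the fibronectin gene and the marker above all controls (13.18 against 13.00 to 13.05). The median difference of the list was −0.20 from GSK-J5 and −0.10 from medium. Thbs1 (7.06 against 7.46 to 7.54) and Col1a2 (6.45 against 6.66 to 7.03) differed most from GSK-J5 among those that passed. In the stem cell and epiblast list 4 of 15 were lower, Lef1 (margin −1.65), Fgf5 (−1.43), Pou3f1 (−0.79) and Dnmt3b (−0.77), and 0 higher. The part of this shift in the members' differences was not tested.

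Differences among the controls were not themselves the rule that chose the members, but all 3 control arrays entered that rule. The values below are therefore not independent of the choice. GSK-J5 minus DMSO ran from −0.15 to 0.12, above 0 for 5 members and below for 4, with a median of 0.01, the same as over all genes. The SD of this difference over the 13314 genes was 0.133. P2rx7 was the closest at 0.01. Laptm5, at 0.12, was the highest, and 32.0% of genes lay as far from 0. DMSO minus medium was −0.29 for Cd80, −0.24 for Laptm5 and 0.45 for Cd86, the members farthest apart in this pair. The SD over the 13314 genes, which do not include Cd86, was 0.140. Medium was the highest control for 6 of the 9 members, which makes it the array that sets their margins. With the same rule applied to each control in turn against the other 3 arrays, medium had 1 gene higher (0.00751%), DMSO 2 (0.015%) and GSK-J5 0.

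The pair of isomers can be compared at 1 matched dose and time for the 9 members, without a test. GSK-J4 minus GSK-J5 ran from 0.02 (Cd86) to 2.18 (Cd80), with a median of 0.86. At 2-fold, Cd80, Apobec1, Laptm5 and P2rx7 were higher, 4 of 9, beside 0.826% of the 13314 genes. The same count was 4 against DMSO (0.841%) and 4 against medium (0.744%). The 3 comparisons share the GSK-J4 array. The members were picked for differences from these same controls, so nothing is read from the counts.

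The genes with values most like Cd80 over the 4 arrays were found by the distance between profiles, each centred on its own mean. Ddit4, an inhibitor of mTORC1, was nearest (distance 0.225), with 9.96 in medium, 9.74 in DMSO, 9.93 in GSK-J5 and 11.80 in GSK-J4. Plk2, a polo-like kinase gene (0.248), Inhbe, an activin subunit gene whose controls lay under the filter level (0.252), and Aldh1l2, a mitochondrial folate enzyme gene (0.385), followed. With 4 arrays, 1 of them high, the distance mostly reflects the size of the GSK-J4 difference.

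The genes on either side of the members were examined last, taking the 3 nearest protein-coding genes each way in the RefSeq order. Genes that are themselves members were left out, so P2rx7 and P2rx4, which flank each other, are not in the counts. Of the 48 genes left, 44 were measured and 30 passed the filter. In either direction 0 of the 30 were counted, beside 2.21% higher and 0.841% lower over all genes. Their margins ran from −0.48 (Dppa3) to 0.38 (Pla1a, a phospholipase gene near Cd80). The other 4 of the 48 were not analysed here, and 14 more were under the filter. A count of 0 among 30 is near what these shares give.

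**Figure D5:**
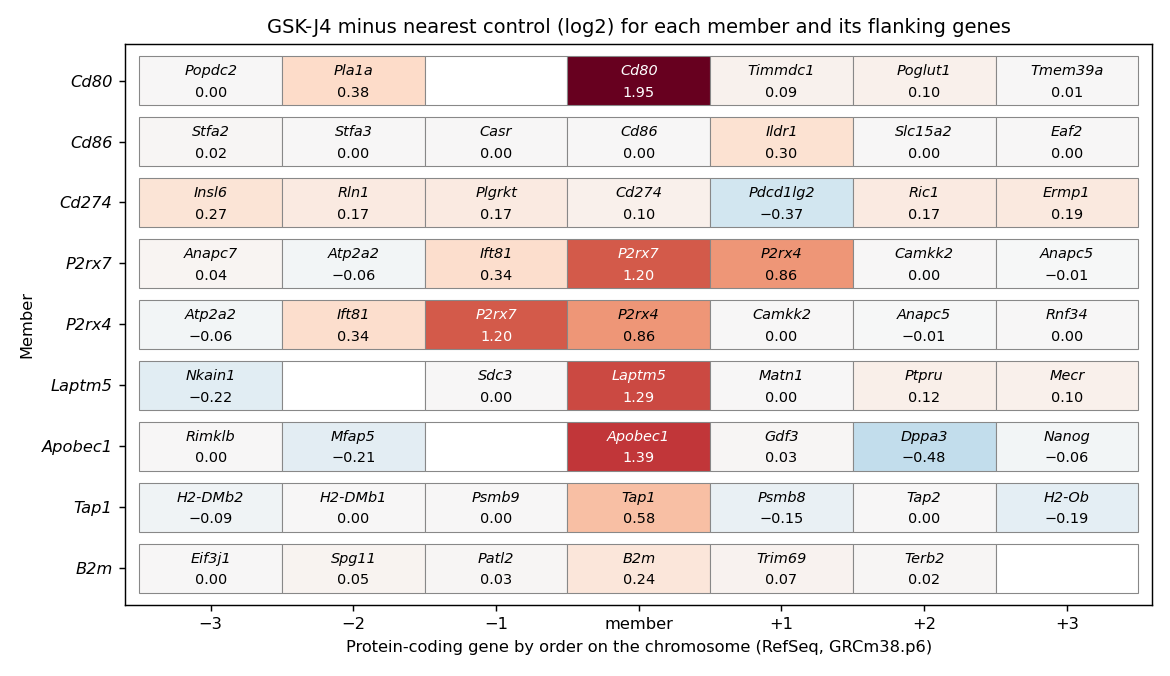
Distance of GSK-J4 to the nearest control (log2, printed in each box and shaded red for higher and blue for lower) for each member, in the middle column, and the 3 protein-coding genes on each side by chromosome order. Blank boxes are genes that were not analysed here. The strong colours stay in the middle column, with P2rx4 (0.86) and P2rx7 (1.20) also appearing beside each other.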

How the data were processed

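Expression was measured in 4 samples of R1 embryoid bodies, 1 Affymetrix array for each treatment, and each array took its treatment from the labels. The deposited values are log2 expression. Per the submitters' processing notes, the authors ran the RMA method in version 1.2.1.20 of Affymetrix Expression Console. This method corrects background, gives all arrays nearly the same distribution and summarises probe sets, so a shift of the whole transcriptome would be removed. No source used here states the log base, which was taken as 2 from the range of values, 2.20 to 14.48, so every fold rests on base 2. Scanner files were not used here, so detection was not examined, and precision is limited by having 4 arrays.

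Of 41345 probe sets, the platform annotation, which can be old, gave 23521 a single symbol, 1814 several, and did not list 16010. The brightest probe set on average stood for each of 22180 genes, and 13314 reached the 40th percentile of the mean. All 210 listed genes and members matched a RefSeq identifier (GRCm38.p6), and 0 symbols differed. That table served for names and gene order. Promoter windows came from RefSeq, cut to the 250 upstream bases. Margins, counts and list medians were computed in Python 3.11.15 with pandas 2.3.3. The size rule was run on simulated arrays whose changed genes lay far past the limit, so genes near the limit were not tested. With 1 array per treatment no significance test between treatments was run.

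Named genes are the members, all measured genes of the B7, P2X, APOBEC and LAPTM lists, up to 4 counted genes per direction from every other list (or the 2 farthest from GSK-J5 that passed), and the 4 genes nearest to Cd80 in pattern. Nanog, Sox2, Ptprc, Ccr7, Fn1, H2-T10, Cd28, Ctla4, Pdcd1, Icos, the flanking genes and those marked in the text were named outside this rule, after their values were seen. The members, lists, rules and alternatives were chosen with earlier results of these data known. The flanking genes and the motifs were added after the values were seen. The alternatives were no filter, a 60th percentile filter, median centring, repeated quantile normalization, loess (span 0.3), the median over probe sets, limits of 2-fold and of 25% in place of 1.5-fold, the mean of the controls or another control as reference, and leaving out each control.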

Additional observations from a re-analysis of the deposited data

How the results depend on the processing

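Every array is single, so a margin rests on 1 GSK-J4 array and 1 nearest control, and dim genes (Cd86, Cd274) may hide changes. The members' count of 5 was 4 at 2-fold and became 6, with Tap1 added, after median centring, at a limit of 25%, against the mean of the controls and without the DMSO array; leaving out 1 control gave 5 to 6. With the 60th percentile filter it was 2 (P2rx7 and P2rx4), because Cd80, Laptm5 and Apobec1 no longer passed. Under that filter 191 of 8875 genes were higher, beside 294 of 13314 with the main filter. At 2-fold 76 genes were higher and 14 lower, and at 25% 955 and 527. Against the mean of the controls 412 were higher and 170 lower. Leaving out 1 control gave 320 to 341 higher and 129 to 141 lower. The excess of the Cd80 difference over that of Cd274 was 1.98 against the mean of the controls and 1.85 to 2.05 with 1 control left out; over Cd86 it was 1.93 to 2.18 with 1 control left out. The class I median was −0.065 after repeated quantile normalization, −0.09 against DMSO and −0.08 against medium. The interferon median was −0.086 under loess and −0.055 against medium. The causes of these shifts in the medians were not tested. No member's margin changed sign under the 8 alternatives run on it. No paired analysis was possible because each treatment has 1 array.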
